A study of Mus musculus with 6 samples.

Results

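Complement, coagulation and fibrinolysis genes were described across obese and lean mouse atria, as a list of 33 genes whose names were matched, ignoring case, to the gene names of the deposited table of 43432 gene rows. Each of the 33 names matched 1 row. The list holds 18 complement genes, 5 coagulation factors and receptors, 5 anticoagulants, 3 genes of fibrinolysis and 2 related secreted proteins. A mean of at least 10 normalized counts over the 6 samples was needed for a test, and 31 of the 33 genes passed, among 15275 genes tested. The genes for coagulation factors V and X (F5 and F10) did not.

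RNA of atrial tissue, right and left together, was sequenced from C57/Bl6 WT mice, given as C57/Bl6J in the genotype label, that received a high-fat diet (HFD; obese, n = 3) or control chow (lean, n = 3) for 10 weeks from 6 weeks of age. Each sample is called a mouse here, since whether atria of several animals were joined in a sample is not given in the sources used here. The p-values measure the spread between these samples. Titles and table columns give one diet per sample, the treatment label gives the opposite diet for all 6, and the titles were followed, so every direction below rests on them. A normalized count is a gene's read count divided by 1 size factor per sample.

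Complement is a cascade of plasma proteins that tags microbes, dying cells and immune complexes. It is started by C1q and C1 proteases, by lectins with MASP proteases or by the alternative pathway, converges on C3 and ends in a membrane pore. Coagulation is started by tissue factor and ends in a fibrin mesh crosslinked by factor XIII, while plasmin, made from plasminogen by tissue-type and urokinase-type activators, dissolves fibrin. Hepatocytes make most of the circulating factors, whereas macrophages, endothelium and stromal cells in the heart make several of them locally.

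Total reads on genes ranged from 15874251 to 17351467 in 5 samples and reached 28971508 in lean mouse 2, in which 30.7% of the signal was mitochondrial against 19.5% to 24.4% in the others. A floor of 3 reads corresponded to 2.05 normalized counts in lean mouse 2 and to 3.01 to 3.41 in the other samples, covering counting error only. Obese mice 1 and 2 stood apart in atrial myocyte genes, 5 markers summing to 557783 and 664103 normalized counts against 972027 in obese mouse 3 and 862964 to 905884 in the lean mice. Lean mouse 2 had the highest sum of 4 ventricular myocyte markers, 17399 against 6882 to 9866 in the others. In limma, all 5 atrial and all 4 ventricular markers had negative log2 fold changes in obese against lean mice. An unadjusted p under 0.05 was found for 2 atrial and 1 ventricular marker, against 5.55% of all genes tested. Sln, 1 of the atrial markers, was lower in every obese mouse, at 23714, 19693 and 19799 against 26121, 27600 and 25151. For 21 of the 31 genes tested, omitting 1 mouse moved the log2 fold change by over 1.5 times or changed its sign in at least 1 fit, and these genes are named at the end. In bulk atria, more or fewer cells of a type and more or less RNA per cell cannot be told apart.

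In obese against lean atria, 25 of the 31 genes tested had a positive and 6 a negative log2 fold change, with a median of 0.33 against 0.0049 over all genes tested. C4b was the 1 gene of the list with an adjusted p under 0.05 (limma, Benjamini-Hochberg over 15275 genes), against 0.746% of all genes tested. An unadjusted p under 0.05 in limma was found for 15 genes with higher values in obese atria, 48.4% of those tested against a background of 6.66%, and for 1 gene, Tfpi, with lower values, 3.23% against 5.55%. The 15 were C1qa, C1qb, C1qc, C4b, C3, Cfb, Cfp, C6, C3ar1, F13a1, Thbd, Pros1, Serpine2, Plat and Plaur. For 12 genes all obese mice lay above all lean mice, against 8.86% of all genes tested, and for Tfpi all lay below, against 9.17%. The list was chosen with earlier results of these data known, so these shares and the median do not test it as a set. The exact permutation test cannot give a two-sided p below 0.1 for 3 mice against 3. A DESeq2 Wald test on reads recovered from the normalized counts called 5 of the 30 genes to which it gave an adjusted p (C4b, C3, Plaur, F13a1 and Tfpi), against 3.34% of all genes.

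**Figure D1:**
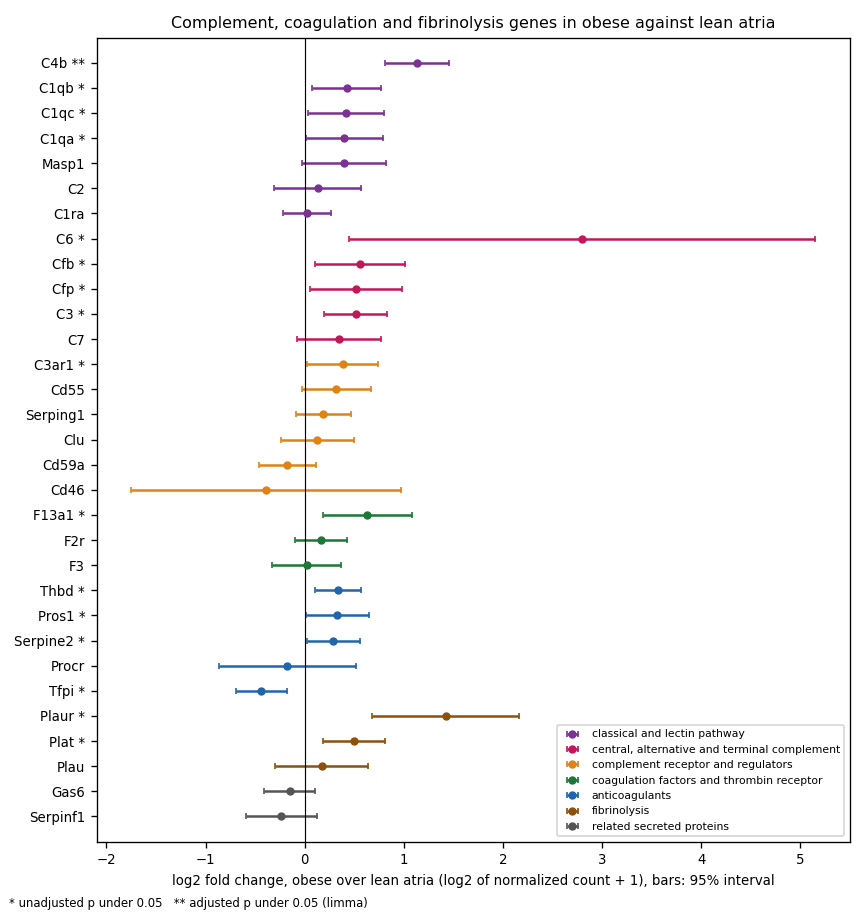
Log2 fold change of each of the 31 genes tested, obese over lean atria, on the x axis with its 95% interval from limma, and genes grouped by role on the y axis (1 star, unadjusted p under 0.05; 2 stars, adjusted p under 0.05). C4b stands at 1.13, Plaur at 1.42 and Tfpi at -0.44, and C6 has the widest interval, from 0.45 to 5.15.

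For reference to the results that follow, the 250 bases upstream of the RefSeq start of C1qb, C1qc, C3 and Plaur are shown, since the C1q genes are neighbours with like values, C3 is the component on which the pathways converge, and Plaur had the largest log2 fold change among the members with over 20 reads in every mouse. RefSeq (GRCm38.p6) gave windows for 23 of the 33 genes. The sequences read 5′ to 3′ on the gene's strand, ending at the base before the start, and capitals mark matches, on either strand, to a PU.1 core (GAGGAA) or a C/EBP motif (TTGCNNAA). The windows are chr4:136886201-136886450 (minus strand) for C1qb, chr4:136892915-136893164 (minus) for C1qc, chr17:57228137-57228386 (minus) for C3 and chr7:24462233-24462482 (plus) for Plaur. The C1qc window lies partly inside the deposited gene, whose end is at 136893065.
C1qb: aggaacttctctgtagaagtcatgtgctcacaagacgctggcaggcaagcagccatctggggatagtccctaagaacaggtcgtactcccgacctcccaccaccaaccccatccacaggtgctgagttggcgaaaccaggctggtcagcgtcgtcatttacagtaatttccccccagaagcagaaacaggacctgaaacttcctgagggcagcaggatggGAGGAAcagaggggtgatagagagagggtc
C1qc: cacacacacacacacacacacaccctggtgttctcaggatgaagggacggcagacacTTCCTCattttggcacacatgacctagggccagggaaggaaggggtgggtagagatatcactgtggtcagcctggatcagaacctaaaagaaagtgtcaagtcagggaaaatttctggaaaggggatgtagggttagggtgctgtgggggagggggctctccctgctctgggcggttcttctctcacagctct
C3: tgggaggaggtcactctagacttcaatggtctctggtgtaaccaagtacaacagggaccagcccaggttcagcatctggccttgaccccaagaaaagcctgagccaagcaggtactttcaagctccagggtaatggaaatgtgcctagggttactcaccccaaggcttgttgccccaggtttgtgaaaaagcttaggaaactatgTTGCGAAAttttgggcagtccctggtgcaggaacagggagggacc
Plaur: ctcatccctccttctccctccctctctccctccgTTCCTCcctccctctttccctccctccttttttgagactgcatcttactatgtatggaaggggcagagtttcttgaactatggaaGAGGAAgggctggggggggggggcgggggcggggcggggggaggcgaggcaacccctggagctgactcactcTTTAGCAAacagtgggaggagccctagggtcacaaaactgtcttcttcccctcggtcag

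The PU.1 core lay 30 to 25 bases before the start in C1qb and 193 to 188 bases before it in C1qc. In Plaur it matched at 216 to 211 and at 131 to 126 bases, and a C/EBP match lay 59 to 52 bases before the start. The C3 window held a C/EBP match at 45 to 38 bases. The PU.1 core was in 6 of the 25 windows of the listed genes (24%, 2 genes having 2 windows each) against 23.36% of 32536 mouse windows of this length, and the C/EBP motif in 3 (12%) against 9.571%. A STAT motif (TTCNNNGAA) was in 2 windows (8%, against 7.041%), a TATA box (TATAAA) in 3 (12%, against 12.31%) and an E-box (CACGTG) in 0, against 6.036%. Such matches are common in windows of this length, and they describe letters only. The motifs do not overlap one another in the windows shown.

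The classical pathway opened with the C1q subunits, which build the recognition molecule that binds antibodies and dying cells. Their genes lie side by side on chromosome 4 (GRCm38, C1qb from 136880129 to 136886187, C1qc from 136889804 to 136893065 and C1qa from 136895917 to 136898803), 3616 and 2851 bases apart with no gene between. C1qb had 1819, 1507 and 1853 normalized counts in obese mice 1, 2 and 3 and 1398, 1489.9 and 1010.0 in lean mice 1, 2 and 3. Every obese mouse lay above every lean mouse, although obese mouse 2 and lean mouse 2 were almost level, and the comparison gave a log2 fold change of 0.42 with a standard error of 0.16 (limma, adjusted p = 0.308). C1qc had 1591, 1328 and 1397 in the obese and 1271, 1215 and 802 in the lean mice, again without overlap, with a log2 fold change of 0.42 (limma, adjusted p = 0.365). C1qa had 1618, 1366 and 1529 in the obese and 1381, 1252 and 847 in the lean mice, where obese mouse 2 fell below lean mouse 1, with a log2 fold change of 0.40 (limma, adjusted p = 0.383). Lean mouse 3 was lowest for all 3 subunits, and without it the log2 fold changes were 0.25 for C1qb, 0.21 for C1qc and 0.19 for C1qa (limma, adjusted p from 0.504 to 0.591). The subunits kept near-constant proportions within a sample, C1qa to C1qb ranging from 0.825 to 0.987 and C1qc to C1qb from 0.754 to 0.909 over the 6 mice.

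C1q is made chiefly by macrophages, so macrophage markers were set beside it. The 10 markers together summed to 6245 to 7268 normalized counts in obese and 4774 to 5313 in lean mice, without overlap, and all 10 passed the filter. Of the 10, 7 had a positive and 3 a negative log2 fold change. Higher values at an unadjusted p under 0.05 were found for 4 (40%, against 6.66% of all genes tested). An adjusted p under 0.05 was found for 2, against 0.746% of all genes tested. Csf1r, the receptor for the macrophage growth factor, had 1939, 1876 and 1858 in the obese and 2028, 1964 and 1728 in the lean mice, an overlap, with a log2 fold change of -0.01. Lyve1, a hyaluronan receptor of resident macrophages and lymphatic endothelium, rose with a log2 fold change of 0.88 (limma, adjusted p = 0.0172), and Mrc1 had one of 0.34 (limma, adjusted p = 0.382). Cd163, a scavenger receptor of macrophages named after its values were seen, rose by 0.95 on the log2 scale (limma, adjusted p = 0.031). Cx3cr1 and Aif1 of the same list, also named after their values were seen, had log2 fold changes of -0.17 (limma, adjusted p = 0.835) and -0.14 (limma, adjusted p = 0.904). The part of macrophage number in the C1q values was not tested. Per Csf1r count, the summed C1q subunits were 2.47 ± 0.199 for obese and 1.85 ± 0.27 for lean mice (SD, n = 3 each), without overlap (exact permutation p = 0.1, adjusted to 0.125 over 5 ratios of this kind chosen after the values were seen). The direction depended on the marker. Per Cd163 count the sum was 4.69 ± 1.33 for obese and 6.68 ± 1.2 for lean mice, with overlap, and per Lyve1 count it was lower in every obese mouse, at 2.9 ± 0.536 against 3.99 ± 0.567 (SD, n = 3 each). The mean ratio was higher in obese mice for 7 of the 10 markers and lower for 3, and per summed count of the list it was 0.696 ± 0.103 for obese and 0.693 ± 0.118 for lean mice.

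C4b, the fourth component, whose cleaved fragment binds to surfaces and joins C2 in the classical C3 convertase, carried the difference with the smallest p of the list. It lies on chromosome 17 from 34728380 to 34743882. C4b had 3762, 4684 and 3461 normalized counts in obese mice 1, 2 and 3 and 2113, 1631 and 1671 in lean mice 1, 2 and 3. The lowest obese mouse lay well above the highest lean mouse, and the means were 3969 ± 637 for the obese and 1805 ± 267 for the lean group (SD, n = 3 each). This was a log2 fold change of 1.13 with a standard error of 0.15 (limma, adjusted p = 0.00937), with a 95% interval from 0.81 to 1.46. With each mouse left out the log2 fold change ranged from 1.01 to 1.25, and the adjusted p rose to 0.0749 without lean mouse 2 and to 0.061 without lean mouse 3. C4a, a near-identical copy, held 27.1, 9.18 and 21.6 in the obese and 43.7, 37.0 and 10.9 in the lean mice. Reads that fit both genes are uncertain, and the count of C4a was small beside that of C4b.

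The proteases of the early pathways gave no adjusted p under 0.05. C1ra, the C1r protease of the C1 complex, had 1163, 1119 and 1238 in the obese and 1159, 1225 and 1079.9 in the lean mice and a log2 fold change of 0.02 (limma, adjusted p = 0.962), its groups overlapping throughout. Its copy C1rb was listed at 0 in all mice. C2, the protease part of the classical convertase, had 203, 165 and 160.2 in the obese and 140.0, 201 and 144 in the lean mice, with a log2 fold change of 0.13. The C2 gene lies 85 bases from Cfb on the same strand. The annotated gene Gm20547 overlaps both on that strand and Zbtb12 overlaps C2 on the other, so that their reads are uncertain. Masp1, a protease of the lectin pathway, had 201, 184 and 148 in the obese and 119, 130.0 and 154 in the lean mice. Only obese mouse 3 lay within the lean range, and the log2 fold change was 0.40 (limma, adjusted p = 0.447).

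C3, the central component, whose cleavage opens all later steps, lies on chromosome 17 from 57203970 to 57228136. It had 10601, 12308 and 9482 normalized counts in obese mice 1, 2 and 3 and 8626, 7495 and 6569 in lean mice 1, 2 and 3. The groups did not overlap, obese mouse 2 being highest and lean mouse 3 lowest, with a log2 fold change of 0.51 with a standard error of 0.14 (limma, adjusted p = 0.142). DESeq2 gave C3 an adjusted p of 0.018. The ratio of C4b to C3 normalized counts did not overlap between the groups, at 0.367 ± 0.0129 for obese and 0.239 ± 0.0191 for lean mice (SD, n = 3 each, exact permutation p = 0.1, adjusted 0.125).

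Both alternative pathway genes of the list were higher too at an unadjusted p under 0.05. Cfb, factor B, which forms the alternative convertase with C3b, had 225, 191 and 189.7 in the obese and 153, 159 and 104 in the lean mice, without overlap, and a log2 fold change of 0.56 (limma, adjusted p = 0.295). Cfp, properdin, which stabilizes that convertase, had 732, 481 and 533 in the obese and 473, 456 and 297 in the lean mice. Obese mouse 1 stood above the other obese mice for Cfp, the lowest obese mouse was close to the highest lean mouse, and the log2 fold change was 0.52 (limma, adjusted p = 0.356).

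**Figure D2:**
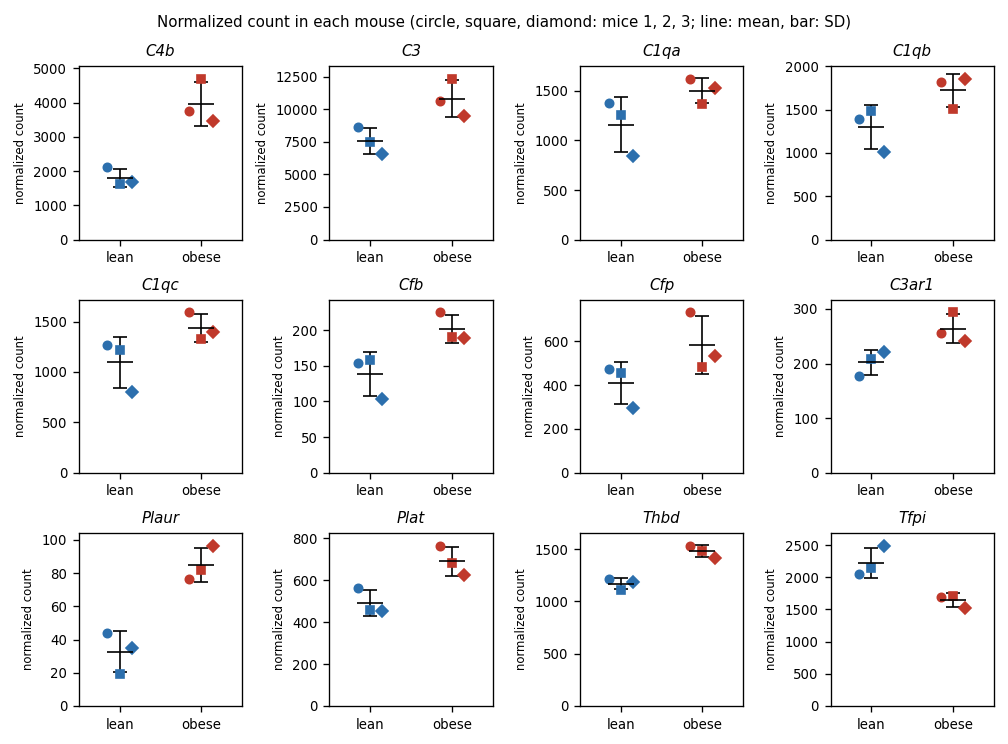
Normalized count (y axis, from 0) of 12 genes in each lean (blue) and obese (red) mouse, with the group mean as a line and the SD as a bar. The 12 were picked from genes with an unadjusted p under 0.05 in limma. All but C1qa show separated groups, and C1qa shows obese mouse 2 below lean mouse 1. Of the 31 genes tested, 18 overlap between the groups.

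The terminal components, which build the membrane pore, were uneven. C7 had 1340.1, 1774 and 1181 in the obese and 1394, 1120.3 and 874 in the lean mice, where obese mice 1 and 3 overlapped the lean mice, with a log2 fold change of 0.35 (limma, adjusted p = 0.516). C6 was at the edge of detection with 50, 30 and 15 reads in obese mice 1, 2 and 3 and 0, 38 and 2 reads in lean mice 1, 2 and 3. As normalized counts these were 50.2, 30.6 and 17.0 in the obese and 0, 26.0 and 2.19 in the lean mice. Lean mouse 2, the deepest library, thus lay between obese mice 2 and 3. The log2 fold change of C6 was 2.80 (limma, adjusted p = 0.317), but it depends on the offset added to values near 0, being 4.04 with a pseudocount of 0.1, 1.73 in DESeq2 and 1.66 in edgeR. Without lean mouse 1, in which C6 was at 0, it was 1.73 in limma, and without lean mouse 2 it was 4.11.

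C3ar1, the receptor for the C3a fragment on myeloid cells, had 256, 294 and 242 normalized counts in obese mice 1, 2 and 3 and 177, 209 and 221 in lean mice 1, 2 and 3. All obese mice lay above all lean mice, and the log2 fold change was 0.38 (limma, adjusted p = 0.369). Of the 5 regulators, none had an unadjusted p under 0.05 in limma. Cd55, which breaks up convertases on host cells, had 433, 373 and 306 in the obese and 296, 305 and 282 in the lean mice, without overlap but with obese mouse 3 just above the lean mice, and a log2 fold change of 0.32 (limma, adjusted p = 0.455). Serping1, the C1 inhibitor, which also restrains contact activation, had 6051, 5068 and 5562 in the obese and 5477, 4786 and 4382 in the lean mice and a log2 fold change of 0.19 (limma, adjusted p = 0.592). Cd59a, which blocks pore assembly, had 1058, 1005 and 987 in the obese and 1031, 1349.6 and 1082 in the lean mice, and the log2 fold change was -0.17. The groups overlapped for Serping1 and Cd59a, and reads shared by Cd59a with its copy Cd59b are uncertain.

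Clu, clusterin, a chaperone that also holds back the terminal complex, was the gene of the list with the highest level per length, 18067 normalized counts per kb of exon on average. Its lowest mouse, at 15267 per kb, lay far above the highest value of Serping1, the next gene, at 2603. Clu had 72151, 62497 and 59698 in the obese and 68783, 56981 and 52472 in the lean mice, and its log2 fold change was 0.13 (limma, adjusted p = 0.812). Cd46, a cofactor for cleavage of C3b and C4b, was near the lower limit with 6 to 30 reads per mouse, and its log2 fold change of -0.39 had a 95% interval from -1.75 to 0.97.

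**Figure D3:**
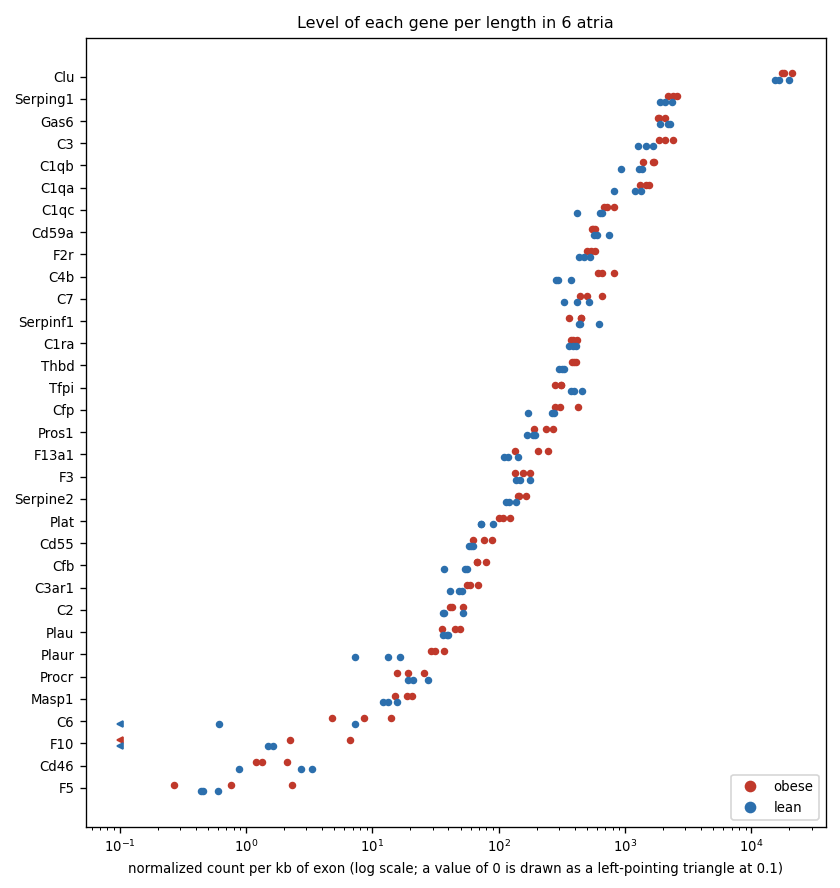
Level of the 33 genes in each obese (red) and lean (blue) mouse, in normalized counts per kb of exon on a log axis, ordered by the mean over 6 mice. Clu stands alone at the top, and below it the range of each gene overlaps that of the next.

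Below Clu, the order of mean levels per kb ran from Serping1 (2246), Gas6 (2022), C3 (1785), C1qb (1391) and C1qa (1281) to C1qc (656), Cd59a (599), F2r (511) and C4b (507). At the low end stood Masp1 (15.8), C6 (5.91), F10 (2.01), Cd46 (1.92) and F5 (0.812). Over the 6 mice, the values of each gene from Serping1 down overlapped those of the next in this order, so neighbours in it are not separated. Complement genes, 18 of the 33 listed, held 5 of the 6 highest mean levels, in an order that this overlap leaves uncertain below Clu.

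F3, tissue factor, which starts coagulation, had 450.0, 341 and 395 normalized counts in obese mice 1, 2 and 3 and 373, 448 and 348 in lean mice 1, 2 and 3. The groups overlapped fully and the log2 fold change was 0.02 (limma, adjusted p = 0.978), with a 95% interval from -0.33 to 0.37. F2r, the thrombin receptor PAR1, had 1669.6, 1941 and 1792 in the obese and 1592, 1456 and 1778 in the lean mice, the lean mouse 3 value lying within the obese range, and a log2 fold change of 0.16 (limma, adjusted p = 0.634). F5, the cofactor of factor Xa, had 2, 17 and 5 reads in obese mice 1, 2 and 3 and 4, 5 and 3 reads in lean mice 1, 2 and 3. F10, the protease that makes thrombin, had 0, 6 and 16 reads in obese and 4, 6 and 0 in lean mice. Neither was tested, and a difference was not detectable at this depth.

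F13a1, the catalytic subunit of factor XIII, which crosslinks fibrin and is also carried by tissue macrophages, had 1383, 1671 and 915 normalized counts in obese mice 1, 2 and 3 and 963, 802 and 737 in lean mice 1, 2 and 3. Obese mice 1 and 2 lay above all lean mice, whereas obese mouse 3 lay below lean mouse 1. The comparison gave a log2 fold change of 0.63 with a standard error of 0.20 (limma, adjusted p = 0.218). Without obese mouse 3 the log2 fold change was 0.88 with an adjusted p of 0.0154, and this was the 1 fit of 6 with a mouse left out that passed the threshold. In the other 5 the log2 fold change ranged from 0.44 to 0.74, with adjusted p-values from 0.297 to 0.529, and DESeq2 on all 6 mice gave 0.0339. The macrophage marker sum given above was higher in obese mice, and its part in this difference was not tested.

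Among the anticoagulants, Tfpi, the inhibitor of tissue factor and factor Xa, was the 1 gene of the list lower in obese atria at an unadjusted p under 0.05. It lies on chromosome 2 from 84432855 to 84476775. Tfpi had 1694, 1716 and 1519.7 normalized counts in obese mice 1, 2 and 3 and 2049, 2142 and 2493 in lean mice 1, 2 and 3. All obese mice lay below all lean mice, and the means were 1643 ± 108 for the obese and 2228 ± 234 for the lean group (SD, n = 3 each). This was a log2 fold change of -0.44 with a standard error of 0.12 (limma, adjusted p = 0.131), and the log2 fold change stayed between -0.49 and -0.35 with each mouse left out. DESeq2 gave an adjusted p of 0.0347. Relative to F3, Tfpi was 4.22 ± 0.714 for obese and 5.82 ± 1.23 for lean mice (SD, n = 3 each), with overlap between the groups (exact permutation p = 0.2, adjusted 0.2).

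Thbd, thrombomodulin, through which endothelium turns thrombin towards protein C, had 1533, 1482 and 1418 normalized counts in obese mice 1, 2 and 3 and 1215, 1112 and 1180.5 in lean mice 1, 2 and 3. The groups were tight and did not overlap, with a log2 fold change of 0.34 with a standard error of 0.11 (limma, adjusted p = 0.203). Procr, the endothelial protein C receptor, had 52.2, 38.8 and 31.8 in the obese and 56.0, 39.0 and 42.6 in the lean mice, an overlap, with a log2 fold change of -0.17 (limma, adjusted p = 0.877). Pros1, protein S, the cofactor of activated protein C, had 1097, 966 and 775 in the obese and 689, 761 and 787 in the lean mice, obese mouse 3 lying within the lean range, and a log2 fold change of 0.33 (limma, adjusted p = 0.389). Serpine2, protease nexin 1, which inhibits thrombin and plasminogen activators, had 1363, 1182 and 1198 in the obese and 1129.8, 940.3 and 996 in the lean mice, without overlap, and a log2 fold change of 0.29 (limma, adjusted p = 0.368). Of the 5 anticoagulants, 3 were therefore higher and 1 lower at an unadjusted p under 0.05, against 6.66% and 5.55% of all genes tested. In limma 0 of the 5 had an adjusted p under 0.05, while DESeq2 called Tfpi.

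The 7 endothelial markers summed to 17435 to 18519 normalized counts in obese and 15010 to 15657 in lean mice, without overlap. All 7 were tested, and 1 had higher values at an unadjusted p under 0.05 (14.3%, against 6.66% of all genes tested). Pecam1, an adhesion molecule of endothelium, had a log2 fold change of 0.57 (limma, adjusted p = 0.0504). Cdh5, the cadherin of endothelial junctions, had one of 0.04. The part of the endothelial share in the values of Thbd and Plat was not tested. Without Pecam1 the sum of the other 6 overlapped between the groups, at 11419, 12260.3 and 12095 in obese and 10904, 11646 and 11638 in lean mice 1, 2 and 3.

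Plat, tissue-type plasminogen activator, had 765, 680.2 and 626 normalized counts in obese mice 1, 2 and 3 and 561, 456 and 451 in lean mice 1, 2 and 3. Every obese mouse lay above every lean mouse, with a log2 fold change of 0.50 with a standard error of 0.14 (limma, adjusted p = 0.147). Plau, the urokinase-type activator, had 84.4, 117 and 107 in the obese and 85.1, 94.4 and 91.8 in the lean mice, where obese mouse 1 was below all lean mice, and its log2 fold change was 0.17 (limma, adjusted p = 0.804). Plaur, the surface receptor that holds urokinase, lies on chromosome 7 from 24462500 to 24475873 and had 76.3, 81.6 and 96.5 normalized counts in obese mice 1, 2 and 3 and 43.7, 19.2 and 35.0 in lean mice 1, 2 and 3. The means were 84.8 ± 10.5 for the obese and 32.6 ± 12.4 for the lean group (SD, n = 3 each), and the lowest obese mouse lay above the highest lean mouse. This was a log2 fold change of 1.42 with a standard error of 0.33 (limma, adjusted p = 0.0874), resting on 76, 80 and 85 reads in obese mice 1, 2 and 3 and 39, 28 and 32 in lean mice 1, 2 and 3. DESeq2 gave Plaur an adjusted p of 0.0128 and edgeR one of 0.115. Plaur relative to Plau was 0.835 ± 0.121 for obese and 0.366 ± 0.156 for lean mice (SD, n = 3 each, exact permutation p = 0.1, adjusted 0.125).

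The 6 neutrophil markers summed to 55.1 to 86.4 normalized counts in obese and 30.2 to 38.3 in lean mice, without overlap, but 5 of the 6 did not pass the filter. Csf3r, the growth factor receptor of neutrophils and the 1 marker tested, had a log2 fold change of 0.71 (limma, adjusted p = 0.389). S100a9 had 18.1, 9.18 and 7.95 in the obese and 3.36, 1.37 and 2.19 in the lean mice, and Ly6g, the defining surface marker, had 0 reads in 5 mice and 1.02 normalized counts in obese mouse 2. The part of myeloid cells in the Plaur values was not tested.

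Of the related secreted proteins, Gas6, a ligand of TAM receptors that shares its domain plan with protein S, had 4681, 4705 and 5252 in the obese and 5826, 5620.2 and 4833 in the lean mice, lean mouse 3 lying within the obese range, and a log2 fold change of -0.15 (limma, adjusted p = 0.659). Serpinf1, pigment epithelium-derived factor, a serpin without protease inhibition, had 1051, 848 and 1068 in the obese and 1468, 1038 and 1023 in the lean mice and a log2 fold change of -0.24 (limma, adjusted p = 0.616). The 2 genes overlapped between groups.

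Of the 82 further genes of these pathways, taken from a list of complement, coagulation and fibrinolysis genes, 42 were tested, 18 were listed at 0 in all mice and 22 had reads but did not pass the filter. Positive log2 fold changes were found for 30 and negative ones for 12, with a median of 0.22. An unadjusted p under 0.05 was found for 10 with higher values, 23.8% of those tested against the 6.66% of all genes, and for 0 with lower values. Of the 42 tested, 2 had an adjusted p under 0.05 in limma, against 0.746% of all genes tested, Itgam being 1 of them.

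S100a10 and Anxa2, which together form a plasminogen receptor, had log2 fold changes of 0.57 (limma, adjusted p = 0.107) and 0.41 (limma, adjusted p = 0.336).

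**Figure D4:**
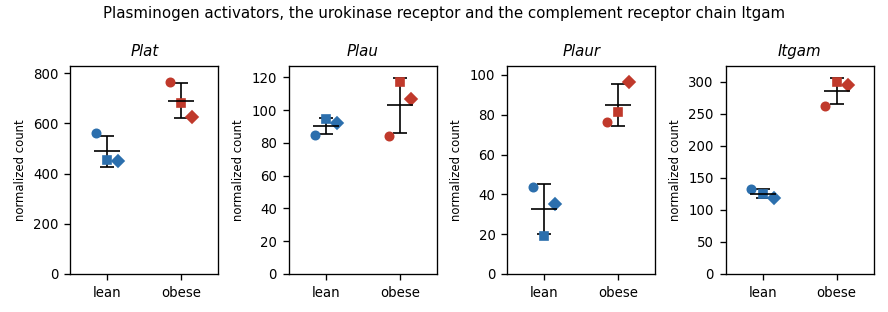
Normalized count (y axis, from 0) of Plat, Plau, Plaur and Itgam in each lean (blue) and obese (red) mouse, with mean (line) and SD (bar). Plaur and Itgam are separated between the groups, and Plau overlaps between the groups.

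Itgam, the alpha chain of complement receptor 3 on myeloid cells, had 262, 299.8 and 295 in the obese and 132, 125 and 118 in the lean mice, and its adjusted p of 0.0106 rose above 0.05 without lean mouse 2 (0.0689), without lean mouse 3 (0.061) and without obese mouse 2 (0.0524). Its partner Itgb2 had a log2 fold change of 0.95 (limma, adjusted p = 0.105). C5ar1, the receptor for C5a, had 290.3, 289.6 and 348 in the obese and 212, 214 and 164 in the lean mice, without overlap, and a log2 fold change of 0.66 (limma, adjusted p = 0.112). Vwf, the platelet-binding protein of endothelium, had one of 0.36 (limma, adjusted p = 0.224), and Ggcx, the carboxylase that modifies vitamin K-dependent factors, one of 0.39 (limma, adjusted p = 0.207). Axl and Mertk, receptors for Gas6 and protein S, had log2 fold changes of 0.30 (limma, adjusted p = 0.255) and 0.44 (limma, adjusted p = 0.399). Mertk is also among the macrophage markers.

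Cfd, factor D, which cleaves factor B and is known as the adipocyte protein adipsin, had 1851, 775 and 714 in the obese and 1412, 580.4 and 285 in the lean mice, a wide spread with overlap, and a log2 fold change of 0.71 (limma, adjusted p = 0.63), which was 0.16 without lean mouse 3, 0.27 without obese mouse 1 and 1.31 without lean mouse 1. The 6 adipocyte markers overlapped between groups as well, summing to 858 to 3520.0 normalized counts in obese and 339.9 to 1732 in lean mice. Serpinc1, antithrombin, had a log2 fold change of -0.11 (limma, adjusted p = 0.843).

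**Figure D5:**
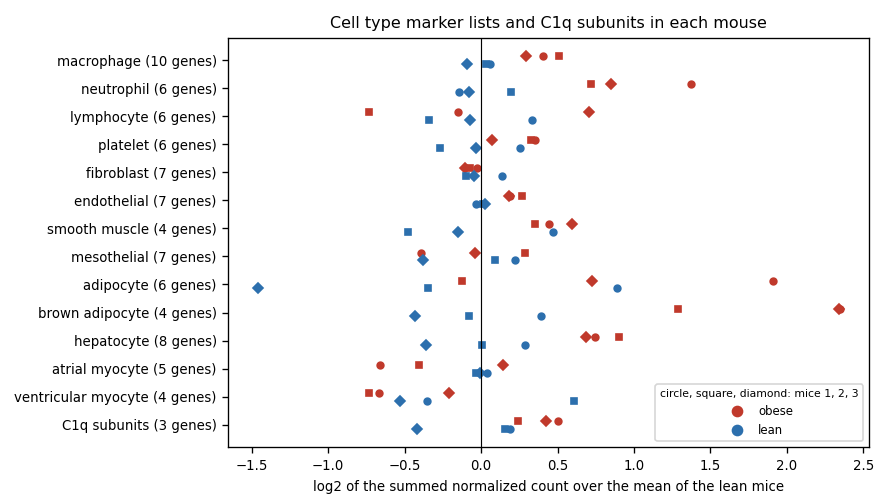
Summed normalized count of each cell type marker list and of the C1q subunits in each mouse, as log2 over the mean of the lean mice (x axis; obese red, lean blue). The macrophage, neutrophil, endothelial, brown adipocyte and hepatocyte lists and the C1q subunits do not overlap between groups, whereas the fibroblast, platelet and adipocyte lists do.

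Several factors typical of liver were listed at 0 in all mice, among them the fibrinogen chain gene Fgb, and albumin (Alb) had 3 reads in 1 mouse. The sum of 8 hepatocyte markers did not overlap, 858 to 997 normalized counts in obese and 414 to 649 in lean mice, and Ahsg, the gene for fetuin A, made up most of it with 839.8, 930.1 and 817 in the obese and 608, 515 and 386 in the lean mice. Of the 8 hepatocyte markers 3 passed the filter, and 2 of these, Ahsg and Ttr, had higher values at an unadjusted p under 0.05, against 6.66% of all genes tested. Ttr, the gene for transthyretin, had 35.2, 29.6 and 10.2 in the obese and 7.84, 2.05 and 10.9 in the lean mice, with overlap and a log2 fold change of 1.76 (limma, adjusted p = 0.362). The 4 brown adipocyte markers summed to 616 to 1283 in obese and 187 to 330.3 in lean mice, without overlap. All 3 that were tested had higher values at an unadjusted p under 0.05 in limma, against 6.66% of all genes tested. An adjusted p under 0.05 was found for 2 of them, against 0.746% of all genes tested. The 7 fibroblast markers overlapped (36866 to 38865 against 37004 to 43547), and so did the 6 platelet markers (307 to 373 against 243 to 349), of which Gp6 was at 0. The part of these lists in the members' values was not tested.

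Obese mouse 3 was the obese sample closest to the lean mice for many of the genes. Of the 15 genes higher at an unadjusted p under 0.05, obese mouse 3 was the lowest obese mouse in 9, yet lay above all lean mice in 12, and lean mouse 3 was the lowest lean mouse in 8. Left out in turn, each mouse gave from 6 to 16 genes of the list higher at an unadjusted p under 0.05, with 6 without obese mouse 1, 8 without lean mouse 3 and 12 without lean mouse 2. Over all 15275 genes tested, an unadjusted p under 0.05 in either direction was found for 1864 with all mice. That total ranged from 1245 without lean mouse 2 to 2216 without obese mouse 3. In limma the count of listed genes with an adjusted p under 0.05 was 0 without lean mouse 2 or lean mouse 3 and 2 without obese mouse 3. Among the 15 genes, 7 had a log2 fold change that moved by over 1.5 times without 1 mouse. Beside the C1q genes and C6, these were Cfb, at 0.36 without lean mouse 3, Cfp, at 0.30 without lean mouse 3 and 0.34 without obese mouse 1, and Pros1, at 0.22 without obese mouse 1. The other 14 genes that moved so far or changed sign had no unadjusted p under 0.05 in the comparison of all mice. They were C1ra, C2, C7, Serping1, Cd55, Cd59a, Cd46, Clu, F3, F2r, Procr, Plau, Serpinf1 and Gas6. For C7 the values ranged from 0.175 to 0.51, for Cd59a from -0.25 to -0.06 and for Clu from 0.04 to 0.24.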

How the data were processed

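Atrial RNA of 3 obese and 3 lean mice had been sequenced as single-end reads of 50 bases from a directional library. Alignment by the authors used STAR and GRCm38 (Ensembl 79). They kept reads mapping to 1 place, annotated them with Salmon and divided read counts by DESeq2 size factors. The deposited signal is this normalized count per gene and sample, whose strand use is not given in the sources used here. Columns of the authors' comparison (mean, fold change, standard error, statistic, p-values and ranking metric) were not used. The row that names no gene holds 0% of the signal.

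Members and lists were chosen with earlier results of these data known. All 33 members are named. Of the further pathway genes, those with an unadjusted p under 0.05 (at most 12) and a fixed few were named, and of the marker lists at most 3 genes each by level, with exceptions stated. A few items that this rule names are not reported here.

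Groups were compared with limma 3.58.1 (R 4.3.3, eBayes with trended variance) on log2(normalized count + 1), over genes with a mean of at least 10, adjusted by Benjamini-Hochberg at 0.05. On this scale the changes of low genes depend on the added 1 and on values of 0, so they can be understated or overstated, as for C6. Dividing by the value of 1 read gave whole reads (within 0.001) for 100% of values, and edgeR 4.0.16 and DESeq2 1.42.0 were run on these reads. Exon lengths came from GENCODE vM21. In simulated obese against lean data, limma recovered 84 of 100 genes changed by log2 1 and 99 of 100 changed by log2 2, with 5 false calls among 15180 genes. The simulation gave every gene the same dispersion of 0.02 and no difference in cell makeup between mice. Its recovery therefore checks the procedure and does not give the share of real changes found here. Alternatives covered normalization, pseudocount, filter, variance trend, mitochondrial genes, replicate block and each mouse left out. Those for the further pathway genes, the ratios of genes and the endothelial sum without Pecam1 were added after seeing the data.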

Additional observations from a re-analysis of the deposited data

How the results depend on the processing

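Of 463 log2 fold changes of listed genes under alternatives, 448 kept their direction and their side of an adjusted p of 0.05, and 29 of 31 genes kept their sign in all. C1ra, at 0.02, turned to -0.0244 with quantile normalization and ranged from -0.0234 to 0.0675 with 1 mouse left out, being also -0.0154 without obese mouse 3. F3, at 0.02, turned to -0.0031 and ranged from -0.077 to 0.1254, with -0.0061 and -0.0565 without lean mouse 1 and lean mouse 3. The cause was not tested.

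Without a variance trend, limma called 0 genes (1717 at an unadjusted p under 0.05), 0 members (8 higher at an unadjusted p under 0.05) and 0 further pathway genes (10 at an unadjusted p under 0.05), and C4b had an adjusted p of 0.174. DESeq2 called 470 genes, 5 members and 5 further pathway genes, and edgeR 87 genes and 1 member. The 15 members higher at an unadjusted p under 0.05 in the main limma fit became 13 in DESeq2, 13 in edgeR and 11 with quantile normalization in limma. With 1 mouse left out, limma called 14 to 318 genes, 0 to 2 members and 0 to 2 further pathway genes, with 6 to 16 members and 5 to 15 further pathway genes higher at an unadjusted p under 0.05. The lowest total, 14, was without lean mouse 2, and the highest, 318, without obese mouse 3. Totals were also below 114 by more than 1.5 times without lean mouse 1 (48), lean mouse 3 (19), obese mouse 1 (50) and obese mouse 2 (24).

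Same-numbered mice of the diets deviated from their group means with correlations of 0.116, -0.027 and -0.0039, and 1 of 3 obese mice correlated best with its own number. With 3 mice per group and no known pair to compare with, these values cannot tell whether the numbers paired the samples. A replicate block gave 157 genes and 1 member called, with 13 members higher and 1 lower at an unadjusted p under 0.05. Depth limits C6, Cd46, F5 and F10, and 3 mice per group limit the test.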
